A study of Homo sapiens with 6 samples.

Results

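The kinetochore is the protein assembly that forms on each centromere and links the chromosome to the microtubules of the mitotic spindle. Its base is chromatin in which CENPA replaces histone H3, and on this base sits the constitutive centromere-associated network (CCAN), whose subunits stay at the centromere through most of the cell cycle. The outer layer (the Mis12 and Ndc80 complexes, KNL1, the Ska complex and the checkpoint proteins) is assembled for mitosis and binds microtubules. The chromosomal passenger complex (INCENP, survivin encoded by BIRC5, borealin encoded by CDCA8, and the kinase Aurora B) and the shugoshins work at the inner centromere, where they correct wrong attachments and protect the cohesion of sister chromatids. The transcripts of 39 genes of these assemblies were followed in cells labelled HepG2 and treated with polydatin (PD). The genes were chosen by name, and all 39 were found among the 28563 genes of the deposited expression table by matching Ensembl identifiers to GENCODE symbols. They comprise 15 genes of the inner centromere (CENPA and the CCAN), 19 of the outer kinetochore and 5 of the passenger complex and the shugoshins.

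HepG2 is an established line of human liver cancer cells. PD, a glucoside of resveratrol made by plants, was given in DMSO. Treatment lasted 24 h, on 3 plates that received PD and 3 that received DMSO alone, and 1 poly(A) RNA library was sequenced from each plate. The labels give 336 µM as the dose of PD, and the methods of the study give a slightly lower one. All plates came from 1 line at 1 time point, so p-values measure the spread between plates.

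The values are FPKM, the fragments counted on a gene divided by gene length and by library size. The library totals worked back from them were 16308476 to 18071632 fragments, and the 39 genes had between 102 fragments (PMF1) and 6944 fragments (CENPF) in a library, so none was near the floor of detection. Of 20 genes typical of hepatocytes, 10 had a row in the table, and 1 FPKM was reached in some library by CPS1 and RBP4 alone. ALB, AFP, APOB and TTR were among those without a row. HNF4A, a defining liver transcription factor, had a mean of 0.0486 FPKM in DMSO and 0.0494 in PD. The summed level of the hepatocyte list was 222 to 229 FPKM in DMSO and 107 to 113 FPKM in PD, nearly all of it from CPS1, whose mean was 225 FPKM in DMSO and 109 in PD. Summed levels of 3 endothelial markers did not exceed 0.0681 FPKM and those of 4 blood markers, of which 2 had a row, did not exceed 0.633 FPKM. A mesenchymal list of 6 genes, 4 of them with a row, summed to 23.9 to 25.5 FPKM in DMSO and 32.4 to 34.1 FPKM in PD, most of it from VIM. Most of the hepatocyte list was thus absent or barely detected, and these values do not bear out the name HepG2. The name is used as the labels give it, and the part of these markers in the results was not tested.

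Calls among the kinetochore genes went in both directions, as they did over all genes tested. With a threshold of 0.05 on the adjusted p (limma on log2(FPKM + 1), over the 14400 genes whose mean reached 0.5 FPKM), 19 of the 39 genes were higher and 12 were lower in PD-treated cells, and 8 did not pass. Over all genes tested, 31.9% were higher and 26.2% were lower, 58.1% in either direction, so a call in itself was common in this experiment. The median log2 fold change of the 39 genes was 0.15, against 0.01 over all genes tested. With FPKM scaled by the upper quartile of each library, 17 were higher and 15 lower, and the calls over all genes changed from 4588 higher and 3780 lower to 3798 higher and 4675 lower. The changes were mostly below 2-fold. CENPF alone was a DEG at 2-fold, where 1.57% of all genes tested were downregulated DEGs and 2.04% upregulated DEGs. In 34 of the 39 genes the PD and DMSO libraries did not overlap, which held for 65.4% of all genes tested.

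**Figure D1:**
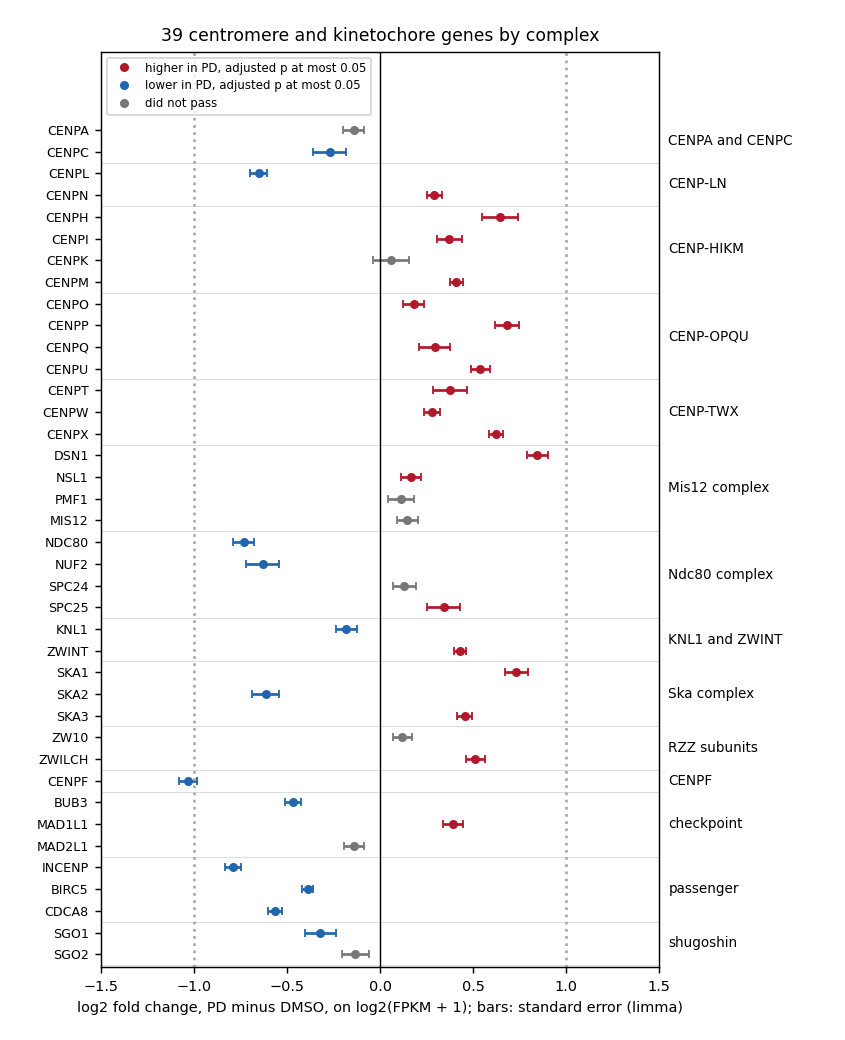
The log2 fold change of each of the 39 genes (x axis, PD minus DMSO on the log2(FPKM + 1) scale, bars give the standard error from limma) is drawn by complex, with dotted lines at 2-fold. The CENP-HIKM, CENP-OPQU, CENP-TWX and Mis12 genes lie right of 0, the passenger and shugoshin genes lie left of 0, and the Ndc80, Ska and CENP-LN genes lie on both sides.

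Counted by class, the calls fell as follows. Among the 15 inner centromere genes, 11 were higher, 2 were lower and 2 did not pass, and their median log2 fold change was 0.29. Of the 19 outer kinetochore genes, 8 were higher, 6 were lower and 5 did not pass, with a median of 0.13. In the passenger and shugoshin class no gene was higher, 4 of 5 were lower, and the median was -0.39. These are counts over a chosen list, and the difference between the classes was not tested.

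The exons of 16 of the 39 genes overlap another annotated gene, on the same or the opposite strand, and the sources used here do not say whether strand was used in the counting. Among the 23 genes without such an overlap, 11 were higher, 9 were lower and 3 did not pass, with members called in both directions. This selection was made after seeing the data.

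The sequences upstream of 6 of these genes, some lower and some higher in PD, are shown so that a reader can see what letters they hold. These 6 include no pair from a single complex whose members moved in opposite directions. RefSeq (GRCh38.p14) promoters of 250 bases before to 50 bases after an annotated start were matched by symbol for 33 of the 39 genes; BIRC5, BUB3, CENPH, CENPL, CENPM and KNL1 had no entry in that table. Each line gives 130 bases before the start and the first 10 bases from the start, 5′ to 3′ on the strand of the gene, and capitals mark matches to 3 motifs on either strand. These are the cell cycle genes homology region (CHR, TTTGAA), which is known as a binding site of the MuvB complexes in promoters of late cell cycle genes, the CCAAT box (CCAAT), which is bound by NF-Y, and an E2F site (TTCCCGC or TTGGCGC). INCENP is at chr11:62123881-62124020 on the plus strand, CDCA8 at chr1:37692386-37692525 on the plus strand, NDC80 at chr18:2571427-2571566 on the plus strand, ZWINT at chr10:56361250-56361389 on the minus strand, SKA3 at chr13:21176543-21176682 on the minus strand and DSN1 at chr20:36773754-36773893 on the minus strand. INCENP, CDCA8 and NDC80 were lower in PD, and ZWINT, SKA3 and DSN1 were higher.
INCENP: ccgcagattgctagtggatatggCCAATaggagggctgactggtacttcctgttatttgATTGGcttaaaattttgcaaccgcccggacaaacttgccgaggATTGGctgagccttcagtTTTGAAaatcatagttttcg
CDCA8: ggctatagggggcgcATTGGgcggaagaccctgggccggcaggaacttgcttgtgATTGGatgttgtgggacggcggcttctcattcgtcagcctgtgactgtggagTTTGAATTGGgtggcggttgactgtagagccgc
NDC80: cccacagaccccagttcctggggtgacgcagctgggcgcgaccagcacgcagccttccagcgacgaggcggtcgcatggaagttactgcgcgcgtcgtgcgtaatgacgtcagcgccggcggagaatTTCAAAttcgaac
ZWINT: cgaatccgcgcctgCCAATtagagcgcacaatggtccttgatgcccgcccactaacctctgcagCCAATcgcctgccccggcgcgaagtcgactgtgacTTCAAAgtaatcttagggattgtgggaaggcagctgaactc
SKA3: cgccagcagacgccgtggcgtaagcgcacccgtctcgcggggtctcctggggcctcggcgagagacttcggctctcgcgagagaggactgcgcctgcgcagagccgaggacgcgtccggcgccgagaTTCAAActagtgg
DSN1: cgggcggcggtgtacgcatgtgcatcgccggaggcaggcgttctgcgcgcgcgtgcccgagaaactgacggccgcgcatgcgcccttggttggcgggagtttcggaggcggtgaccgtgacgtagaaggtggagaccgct
In the CDCA8 line the CHR match and the last CCAAT match share bases, and in general a CCAAT match can overlap an E2F match.

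A member was counted as holding a motif when any of its annotated starts had it. Members without a promoter entry could not be searched. Among them BIRC5, BUB3, CENPL and KNL1 were lower in PD, and CENPH and CENPM were higher. The counts by direction therefore leave out more lower than higher members. Matches to the CHR letters were present in 15 of the 33 members (45.5%), against 18.2% of all 27305 genes of the table counted in the same way and 15.2% of its 35116 promoters counted singly. Among genes tested in these libraries that have a promoter in the table, 13.3% held the CHR letters. By direction, the letters were found in 6 of the 8 lower members (CENPC, NDC80, NUF2, CENPF, INCENP and CDCA8), in 6 of the 17 higher members (CENPN, CENPO, SPC25, ZWINT, SKA1 and SKA3) and in 3 of the 8 members that did not pass. Over all genes tested, 16.7% of the lower and 10.8% of the higher genes had them. CCAAT letters were present in 23 of the 33 members (69.7%), against 39.7% of all genes, 34.6% of single promoters and 43.1% of the genes tested. They were found in 6 of the 8 lower members, 9 of the 17 higher members and all 8 members that did not pass, and over all genes tested in 1129 of 2586 lower and 1596 of 3624 higher genes. The E2F letters were found in 8 of the 33 members (24.2%), against 2993 of the 27305 genes, 9.23% of single promoters and 18.2% of the genes tested. Of these 8 members none was lower, 4 were higher (CENPN, SPC25, ZWINT and SKA1) and 4 did not pass. Over all genes tested the share was nearly the same in both directions, 18.7% of the lower and 18.6% of the higher genes. In the lower members the CHR match of CDCA8 began 23 bases before the start, that of INCENP 10 bases and that of NDC80 3 bases before it, while those of NUF2 and CENPF began at bases 17 and 41 of the transcript. A match describes these letters only, and no binding was measured.

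**Figure D2:**
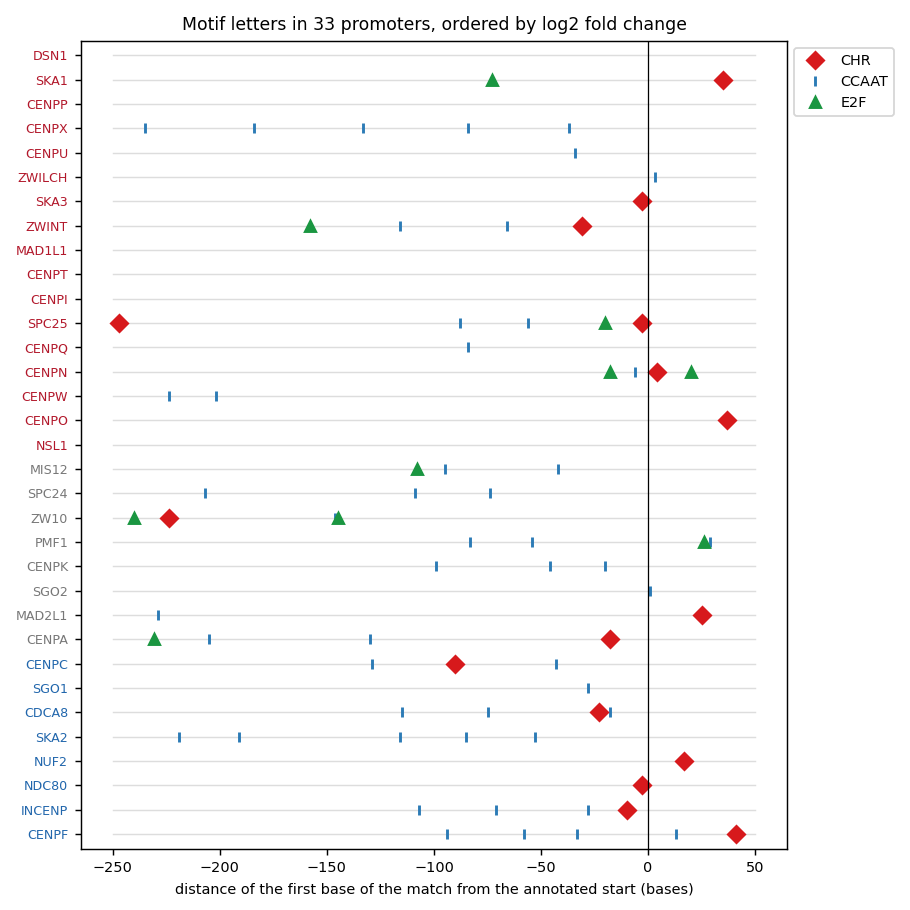
Matches to the CHR, CCAAT and E2F letters on either strand are placed by their distance from the annotated start (x axis, in bases) in the 33 promoters, 1 row a gene at its first listed start, from the largest rise at the top to the largest fall at the bottom. Gene names are red for higher, blue for lower and grey for genes that did not pass, and 6 of the 8 blue rows hold a CHR mark, that of CENPC at 90 bases before the start and the others closer to it.

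CENPF, a large coiled-coil protein of the outer kinetochore and nuclear envelope that accumulates toward mitosis, had the largest change of the 39 genes. It lies on chromosome 1 from 214603185 to 214664574 (GRCh38). CENPF had 34.4, 34.5 and 34.5 FPKM in DMSO and 17.4, 16.4 and 15.3 FPKM in PD. The DMSO libraries were nearly identical, the PD libraries were all far below them, and FPKM fell by 52.6%. This is a log2 fold change of -1.03 (standard error 0.05, adjusted p 5.7e-06, limma). Without PD replicate 3 it was -0.99, which is just short of 2-fold, and no member was then a DEG.

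The 3 passenger complex genes of the list were downregulated. INCENP, the scaffold that holds and activates Aurora B, had 38.8, 40.4 and 40.4 FPKM in DMSO and 23.4, 23.0 and 21.5 FPKM in PD, a log2 fold change of -0.79 (standard error 0.04, adjusted p 8.5e-06, limma). CDCA8 had 30.7, 33.2 and 32.3 FPKM in DMSO and 21.3, 21.1 and 21.6 FPKM in PD. Borealin, its product, ties INCENP and survivin to the centromere, and the log2 fold change of the gene was -0.57 with a standard error of 0.04. BIRC5, with ZWINT one of the most abundant of the 39 genes in DMSO, had 62.9, 60.9 and 63.1 FPKM there and 47.9, 47.4 and 46.6 FPKM in PD, a fall by 24.0% and a log2 fold change of -0.39 (adjusted p of 3.9e-05, limma). In each of these genes every PD library was below every DMSO library, and the mean fell by 24.0% to 43.2%.

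The kinase of the same complex, AURKB, is not among the 39 genes and went the other way. AURKB had a mean of 32.4 FPKM in DMSO and 40.8 FPKM in PD, a log2 fold change of 0.32 with an adjusted p of 0.00064 (limma). The ratio of AURKB to INCENP within a library was therefore 0.843, 0.765 and 0.830 in DMSO and 1.69, 1.74 and 1.99 in PD. The order of these transcripts was reversed, with INCENP above AURKB in each DMSO library and below it in each PD library.

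Both shugoshin genes had low levels. SGO1, which protects centromeric cohesion in mitosis, had 3.58, 3.66 and 3.79 FPKM in DMSO and 3.22, 2.58 and 2.47 FPKM in PD, or a log2 fold change of -0.32 (standard error 0.08, adjusted p 0.013, limma). An antisense gene, SGO1-AS1, overlaps its exons, and its mean was 0.0179 FPKM in DMSO and 0.00570 FPKM in PD. SGO2 did not pass, with a log2 fold change of -0.13, an adjusted p of 0.14 and overlapping groups.

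**Figure D3:**
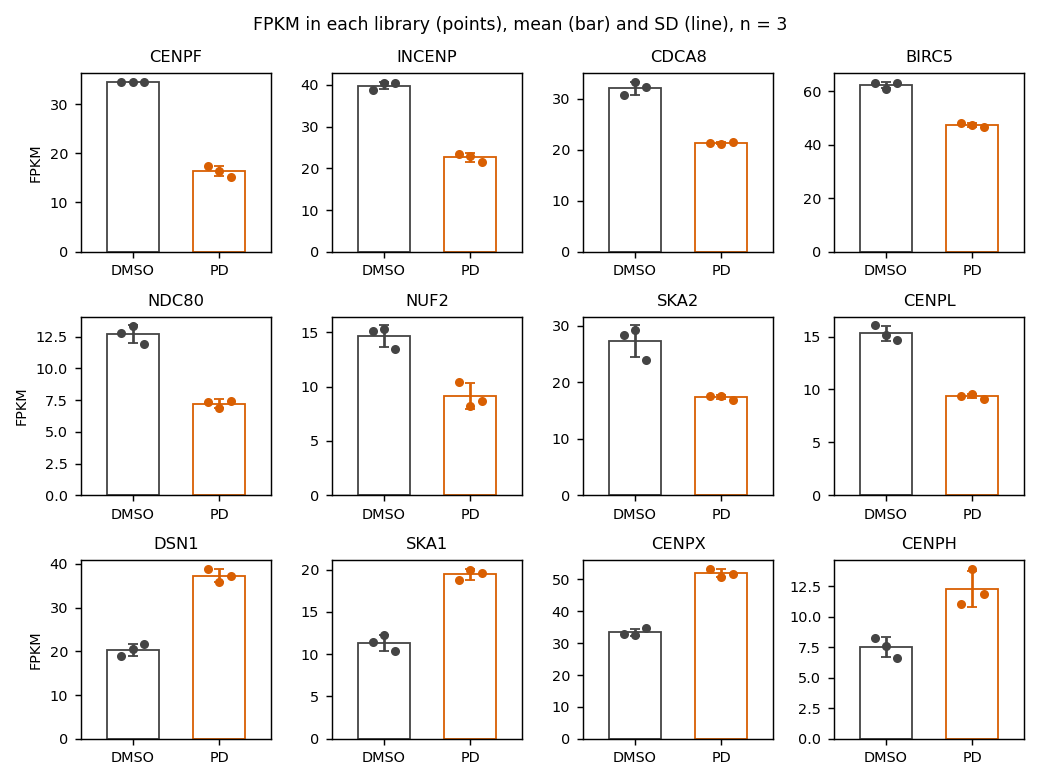
FPKM (y axis, from 0) in each DMSO and PD library are shown as points for 12 of the genes, with bars for the mean and lines for the SD over 3 libraries. In each of the first 8 panels, from CENPF to CENPL, the PD libraries lie below all DMSO libraries, and in the last 4 (DSN1, SKA1, CENPX and CENPH) they lie above them.

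The Ndc80 complex is a rod with the microtubule-binding NDC80-NUF2 pair at one end and the SPC24-SPC25 pair, which docks on the inner kinetochore, at the other. The transcripts divided along these pairs. NDC80 had 12.8, 13.3 and 11.9 FPKM in DMSO and 7.39, 6.85 and 7.44 FPKM in PD, a fall by 43.0% and a log2 fold change of -0.73 with a standard error of 0.06. NUF2 had 15.1, 15.3 and 13.5 FPKM in DMSO and 10.5, 8.20 and 8.72 FPKM in PD, or a log2 fold change of -0.63 (standard error 0.09, adjusted p 0.00072, limma). In both genes the groups were well apart.

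SPC25 had 8.68, 8.04 and 6.79 FPKM in DMSO and 9.53, 10.97 and 9.99 FPKM in PD, with a log2 fold change of 0.34 and an adjusted p of 0.013 (limma). SPC24 had 13.7, 12.5 and 13.2 FPKM in DMSO and 13.7, 15.8 and 14.0 FPKM in PD, and its log2 fold change of 0.13 did not pass (adjusted p of 0.11). In DMSO the NDC80 and SPC24 levels were about equal per length, with ratios of 0.935, 1.06 and 0.903, whereas in PD the ratios were 0.538, 0.434 and 0.533. NUF2 over SPC25 had a mean of 1.88 ± 0.123 (SD, n = 3) in DMSO and 0.906 ± 0.178 (SD, n = 3) in PD. Within the lower pair, NDC80 over NUF2 was 0.867 ± 0.0186 in DMSO and 0.798 ± 0.0803 in PD (SD, n = 3 each), and its exact two-sided permutation p was 0.20.

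The Ska complex, which helps kinetochores follow shrinking microtubules, was divided as well. SKA1, the microtubule-binding subunit, had 11.4, 12.3 and 10.3 FPKM in DMSO and 18.7, 20.0 and 19.6 FPKM in PD, or a log2 fold change of 0.73 (standard error 0.06, adjusted p 5.9e-05, limma). SKA3 had 16.4, 15.5 and 15.1 FPKM in DMSO and 21.8, 21.6 and 22.1 FPKM in PD, a log2 fold change of 0.46. SKA2 had 28.4, 29.3 and 24.0 FPKM in DMSO and 17.6, 17.5 and 16.9 FPKM in PD, a log2 fold change of -0.62 with a standard error of 0.07. SKA2 was thus the most abundant of these subunits in each DMSO library and the least abundant in each PD library. The ratio of SKA1 to SKA2 rose from 0.417 ± 0.0154 to 1.12 ± 0.0516, and that of SKA3 to SKA2 from 0.579 ± 0.0489 to 1.26 ± 0.0400 (SD, n = 3 each).

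In all, 8 such ratios were compared, and the pairs were picked after their values had been seen. Of these, 7 separated the DMSO and PD libraries completely, with an exact two-sided permutation p of 0.10, which is the smallest that 3 against 3 libraries can give, and 0.11 after Benjamini-Hochberg adjustment over the 8 ratios.

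**Figure D4:**
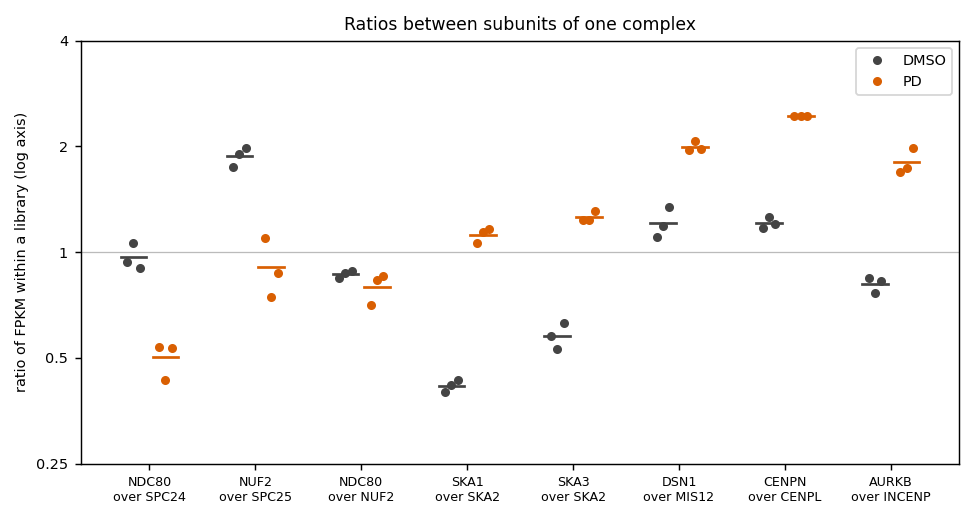
Ratios of FPKM between transcripts of proteins of 1 complex (y axis, log scale) are given for each DMSO and PD library as points, with a line at the mean. NDC80 over NUF2 is the ratio whose groups overlap, and SKA1 over SKA2 changes from 0.417 to 1.12.

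The Mis12 complex joins the CCAN to the outer layer. DSN1, the subunit that is phosphorylated by Aurora B when the complex is assembled on CENPC, had the largest rise of the 39 genes on the log2(FPKM + 1) scale. It lies on chromosome 20 from 36751791 to 36773818 and had 18.9, 20.6 and 21.6 FPKM in DMSO and 38.9, 36.0 and 37.1 FPKM in PD. The log2 fold change reached 0.84 (standard error 0.06, adjusted p 2.1e-05, limma), and its mean in PD was 1.83 times that in DMSO. NSL1 had a log2 fold change of 0.17 with an adjusted p of 0.028, and 4 of the 6 fits that left out 1 library lost this call. MIS12 (0.15) and PMF1 (0.11) did not pass. PMF1 had the fewest fragments of all members and shares exons with the readthrough gene PMF1-BGLAP, so its level is uncertain. The ratio of DSN1 to MIS12 was 1.11, 1.19 and 1.35 in DMSO and 1.96, 2.07 and 1.96 in PD.

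KNL1, the large scaffold on which the checkpoint proteins gather, had 10.8, 10.3 and 9.69 FPKM in DMSO and 9.55, 8.63 and 8.62 FPKM in PD. Its log2 fold change of -0.18 had an adjusted p of 0.030 (limma), and this call was lost in 4 of the 6 fits without 1 library. Its partner ZWINT, which recruits the RZZ complex, had a mean in DMSO within the spread of the libraries from that of BIRC5. ZWINT had 59.8, 61.9 and 64.0 FPKM in DMSO and 84.0, 82.8 and 84.6 FPKM in PD, a log2 fold change of 0.43 with a standard error of 0.03. These genes therefore moved apart although their proteins bind each other.

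Of the RZZ subunits, which bring dynein and the checkpoint proteins to unattached kinetochores, ZWILCH had 8.25, 8.16 and 7.78 FPKM in DMSO and 12.5, 11.2 and 12.1 FPKM in PD. The log2 fold change of ZWILCH was 0.51 with an adjusted p of 0.00014 (limma). Its exons overlap those of RPL4 on the opposite strand, an abundant gene with a log2 fold change of -0.11. ZW10 had 13.9, 12.8 and 12.7 FPKM in DMSO and 13.8, 14.3 and 14.9 FPKM in PD, and its log2 fold change of 0.12 did not pass (adjusted p of 0.075).

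The checkpoint genes on the list went separate ways. BUB3, the adaptor that binds phosphorylated KNL1, had 24.4, 24.6 and 23.5 FPKM in DMSO and 16.4, 17.6 and 17.5 FPKM in PD, a log2 fold change of -0.47 with an adjusted p of 7.9e-05 (limma). MAD1L1, which anchors MAD2 at the kinetochore, had 5.10, 4.84 and 5.27 FPKM in DMSO and 6.80, 7.32 and 6.75 FPKM in PD, a log2 fold change of 0.39. Of its 7230 exon bases, 3004 are shared with ENSG00000286192 on the same strand. That gene has no row in the table, so the level of MAD1L1 is uncertain. MAD2L1, the anaphase inhibitor itself, had a log2 fold change of -0.14 and did not pass (adjusted p of 0.060). With voom on fragments the adjusted p of MAD2L1 was 0.036, and over the settings it ranged from 0.0078 to 0.18.

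At the inner centromere, the histone variant CENPA had 26.0, 27.3 and 24.2 FPKM in DMSO and 24.4, 22.0 and 23.4 FPKM in PD, so that the groups overlapped. Its log2 fold change of -0.14 did not pass (adjusted p of 0.061), but it passed with median-of-ratios scaling (0.033) and upper quartile scaling (0.0067), and over all settings the adjusted p was 0.0067 to 0.18. Its exons overlap SLC35F6 on the same strand, which had a log2 fold change of 0.49. CENPC, the protein that reads the CENPA nucleosome and holds the network together, had the lowest level of all members in DMSO, with 1.45, 1.41 and 1.15 FPKM in DMSO and 0.932, 0.874 and 0.997 FPKM in PD. Its log2 fold change of -0.27 had an adjusted p of 0.030 (limma) and lost the call in 5 of the 6 fits without 1 library. The mean FPKM of CENPC fell by 30.3%, and the pseudocount of 1 shrinks such a change at low values. A pseudocount of 0.1 gave -0.47, and voom on fragments gave -0.51 (adjusted p of 0.0012). CENPC passed in 6 of the 13 settings.

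The CENP-LN pair, in which CENPN binds the CENPA nucleosome and CENPL joins it to the rest of the network, was split. CENPL had 16.1, 15.2 and 14.7 FPKM in DMSO and 9.43, 9.54 and 9.12 FPKM in PD, a log2 fold change of -0.65 (standard error 0.05, adjusted p 2.6e-05, limma). It was the largest fall among the inner centromere genes. CENPN had 18.8, 19.1 and 17.7 FPKM in DMSO and 23.0, 23.3 and 22.3 FPKM in PD, a log2 fold change of 0.29. CENPN over CENPL rose from 1.21 ± 0.0460 in DMSO to 2.44 ± 0.00498 in PD (SD, n = 3 each). Exons of CENPN overlap several genes, among them ENSG00000261061 on the same strand, with a log2 fold change of 0.29 that did not pass (adjusted p of 0.13), and CMC2 on the opposite strand (-0.14, adjusted p of 0.12).

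In the CENP-HIKM group, which joins the DNA-bound parts of the network to the outer layer, 3 of 4 genes were higher. CENPH had 8.25, 7.60 and 6.62 FPKM in DMSO and 11.05, 13.9 and 11.9 FPKM in PD, or a log2 fold change of 0.64 (standard error 0.10, adjusted p 0.0011, limma). CENPM had 25.6, 25.3 and 25.8 FPKM in DMSO and 35.7, 33.5 and 33.7 FPKM in PD, a log2 fold change of 0.41, and CENPI had a log2 fold change of 0.37. CENPK did not pass. It had 9.73, 8.52 and 7.44 FPKM in DMSO and 9.36, 9.38 and 8.03 FPKM in PD, and its log2 fold change of 0.06 changed sign with upper quartile scaling (-0.02).

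All 4 CENP-OPQU genes, of an accessory group of the network in which CENPU serves as a docking site for PLK1, were higher. CENPP had 1.49, 1.498 and 1.35 FPKM in DMSO and 2.90, 2.99 and 2.89 FPKM in PD, so that its mean in PD was 2.02 times that in DMSO. On the log2(FPKM + 1) scale this was 0.68 (standard error 0.06, adjusted p 8.8e-05, limma), since the pseudocount shrinks the change of low values, and voom on fragments gave 1.02. With voom 6.72% of the genes tested rose and 4.78% fell by at least 2-fold. Exons of CENPP overlap IPPK on the opposite strand, and IPPK had a log2 fold change of -0.24. CENPU had 3.27, 3.31 and 3.29 FPKM in DMSO and 5.02, 5.22 and 5.46 FPKM in PD, a log2 fold change of 0.54. PRIMPOL, which overlaps CENPU on the opposite strand, had a log2 fold change of 0.32 (adjusted p of 0.044). CENPQ (0.29) and CENPO (0.18) were also higher, and their calls were lost in 2 and 4 of the 6 fits without 1 library. Exons of CENPO overlap ADCY3 and PTRHD1 on the opposite strand, and ADCY3 rose from a mean of 12.1 to 16.8 FPKM, with a log2 fold change of 0.44.

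The 3 genes of the CENP-TWX group, histone-fold proteins of which CENPT reaches out to the Ndc80 complex, were all higher. CENPX had 32.9, 32.6 and 34.8 FPKM in DMSO and 53.3, 50.8 and 51.7 FPKM in PD, a log2 fold change of 0.62 (standard error 0.04, adjusted p 1.5e-05, limma). CENPX also works in DNA repair with FANCM, and its exons overlap those of LRRC45, a gene on the opposite strand with a log2 fold change of 0.54. CENPT had a log2 fold change of 0.38 and CENPW of 0.28. CENPT had 3.25, 2.55 and 2.87 FPKM in DMSO and 3.56, 4.21 and 4.37 FPKM in PD, and its exons overlap those of genes on the opposite strand.

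A list of 27 other centromere and kinetochore genes was mostly lower. Of the 26 that were tested, 17 were lower, 7 were higher and 2 did not pass, and the median log2 fold change was -0.34. Over all genes tested, 26.2% were lower and 31.9% were higher, with a median of 0.01. The list was chosen with earlier results of these data known. PLK1, the mitotic kinase, was the DEG among them, with 27.2 ± 0.371 FPKM in DMSO and 9.003 ± 0.333 FPKM in PD (SD, n = 3 each) and a log2 fold change of -1.498. CDC20, which activates the anaphase-promoting complex (-0.94), and the kinesin CENPE (-0.90) followed. The checkpoint kinases BUB1 (-0.82), BUB1B (-0.72) and TTK (-0.63) were lower, and HASPIN (0.41), AURKB (0.32) and TRIP13 (0.10) were higher. For the deposition of CENPA, the chaperone HJURP (-0.34) was lower, whereas MIS18A (0.38) and OIP5 (0.14) were higher. RBBP7 was lower by a small amount (-0.10). Among other centromere proteins, CENPB, which binds a motif in alpha-satellite DNA, was higher (0.31), ITGB3BP, the CENP-R subunit, was lower (-0.20), and CENPS was under the minimum, with means of 0.169 FPKM in DMSO and 0.398 FPKM in PD.

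Genes typical of cell cycle phases also changed. Of 20 genes typical of G2 and mitosis, 17 were lower and none was higher in PD, against 26.2% lower and 31.9% higher over all genes tested. Their median log2 fold change was -0.69, and the 5 DEGs were ASPM (-1.46), ECT2 (-1.20), ANLN (-1.08), TOP2A (-1.05) and CCNB1 (-1.03). HMMR (-0.99) fell short of 2-fold on the log2(FPKM + 1) scale, although its mean FPKM fell by 55.8%. Of 20 genes typical of G1 and S phase, 14 were higher and 5 were lower, with a median of 0.32, including rises of CDC6 (1.15), CCNE2 (0.65) and CCNE1 (0.63) and falls of MCM2 (-0.40) and MCM5 (-0.33). In bulk RNA, fewer cells in a phase and less RNA per cell cannot be told apart, and the part of the phases in the results on the kinetochore genes was not tested.

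**Figure D5:**
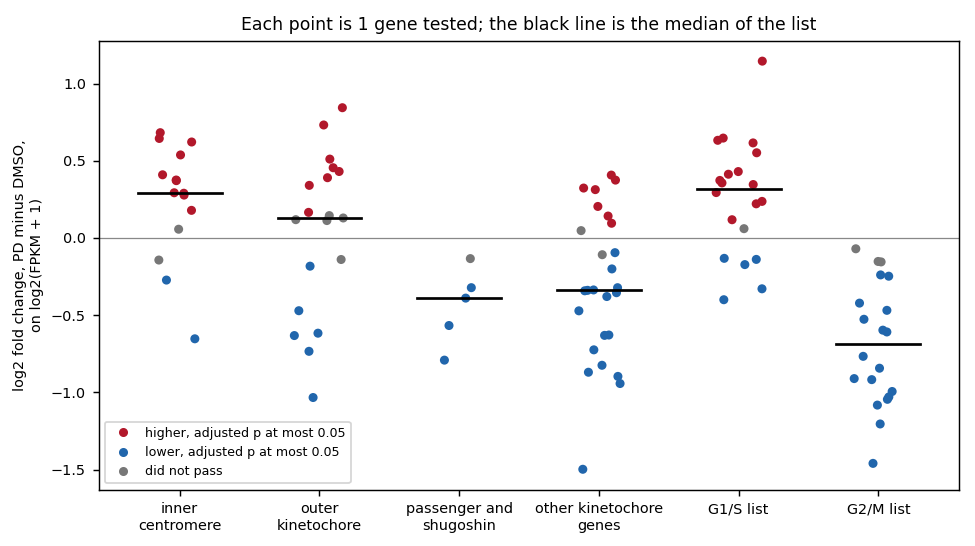
Each point is the log2 fold change of 1 tested gene (y axis, PD minus DMSO on the log2(FPKM + 1) scale), grouped by class or list, with a line at the median. The medians are 0.29 for the inner centromere, 0.13 for the outer kinetochore, -0.39 for passenger and shugoshin genes, -0.34 for the other kinetochore genes, 0.32 for the G1/S list and -0.69 for the G2/M list.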

How the data were processed

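RNA of cells labelled HepG2, treated with PD or DMSO, was sequenced in 3 libraries per group, assigned from the labels. The authors used HISAT2 (hg38) and HTSeq 0.6.0 to turn paired reads into gene counts, and deposited FPKM. The annotation and strand setting are not given in the sources used here. All value columns were assigned to samples. The members and lists were chosen with earlier results of these data known.

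The log2(FPKM + 1) values of genes whose mean reached 0.5 FPKM went into limma 3.58.1 (R 4.3.3; eBayes with a trend, no covariates) with Benjamini-Hochberg adjustment over all genes tested. A DEG passed 0.05 and changed at least 2-fold. Fold changes understate the changes of low genes. Ratios were tested by exact permutation in scipy 1.17.1. Fragments were worked back with the annotated exon length where this gave whole numbers (within 0.001) in all 6 libraries, as in 12879 genes. For 15684 genes the smallest length that gave whole numbers was used instead. Voom used genes with at least 10 fragments in 3 libraries. The fits were also run on simulated data with far fewer changed genes than were called here, and the outcome of that run is not reported here. Alternatives were a pseudocount of 0.1, no filter, a block, median-of-ratios and upper quartile scaling, voom, each library left out in turn and, added after seeing the data, members without exon overlap. Coordinates and exon overlaps are from GENCODE release 44 (GRCh38).

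All 39 members are named by complex, with values in every library for DEGs and for the largest rise and fall of each complex. Genes outside the list are named where they were DEGs or had the 3 largest changes, and other genes of those lists were picked with their values known. Some single genes of the lists and overlaps are not reported here.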

Additional observations from a re-analysis of the deposited data

How the results depend on the processing

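Of the 39 genes, 26 kept their call under all 13 settings, 16 as higher and 10 as lower, 3 passed in none, and 38 kept one sign. CENPK changed sign with upper quartile scaling (-0.019) and without DMSO replicate 3 (-0.030), and its log2 fold change was -0.030 to 0.14 over the fits without 1 library; the cause was not tested. Without 1 library, 16 to 19 members were higher and 10 to 14 lower. The same fits called 0 or 1 member as a downregulated DEG, because CENPF fell short of 2-fold without PD replicate 3. Voom on fragments called 1 member, CENPP, as an upregulated DEG. Counting members with no exon overlap, chosen after seeing the data, left 11 higher, since fewer genes were counted. With the replicate number as a block, 18 members were higher and 11 lower, as CENPC and CENPO no longer passed. The deviations of same-numbered libraries had correlations of -0.027, -0.0046 and 0.090, and those of differently numbered libraries ran from -0.084 to 0.085. Such small values cannot settle whether the numbers pair the plates. With 3 libraries a group, changes of about 0.15 on the log2 scale, as in CENPA, MIS12 and MAD2L1, passed or failed with the setting.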
